A study of Mus musculus with 8 samples.

Results

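The genes described here carry fatty acids into skeletal muscle: 3 fatty acid transporters (Cd36, Slc27a1 and Slc27a4), a pair of fatty acid binding proteins (Fabp3 and Fabp5), and lipoprotein lipase (Lpl) with its capillary anchor (Gpihbp1) and its inhibitor (Angptl4). They were chosen by name, 8 of the 54091 rows of the deposited table, and all 8 were abundant enough to be among the 15657 genes tested. The RNA came from white quadriceps, a pale thigh muscle rich in fast fibres. The mice were males of 11 to 14 weeks, kept for 7 days on food with 60% fat. The 4 knockout libraries (replicates 5 to 8) are labelled CKM Cre with Acot2 lost in muscle, and the 4 control libraries (replicates 1 to 4) are labelled Loxp/Loxp. Cre under the muscle creatine kinase promoter acts in skeletal and heart muscle fibres, so endothelial cells, adipocytes and macrophages in the tissue are not its targets. The labels give no Cre-only control, so an effect of Cre and one of losing Acot2 cannot be told apart. The comparison asks how muscle that lacks this mitochondrial acyl-CoA thioesterase handles a high supply of fat, here at the steps before fatty acids are activated.

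Triglyceride in chylomicrons and very low density lipoproteins is split at the capillary wall by lipoprotein lipase. Muscle fibres make the enzyme, and GPIHBP1 on endothelial cells carries it to the vessel lumen and holds it there, while ANGPTL4 inactivates it. The released fatty acids cross the endothelium and the fibre membrane with the help of CD36 and fatty acid transport proteins, and FABP3 is the main carrier of fatty acids in the cytosol of muscle fibres. Several of these genes, Angptl4 among them, are targets of the fatty-acid-activated PPAR receptors.

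None of the 8 genes differed between knockout and control muscle past the threshold (limma, Benjamini-Hochberg adjusted p under 0.05), against 1 gene, 0.00639%, of the 15657 tested. Of the 8 estimates, 7 were higher and 1 was lower in knockout muscle, where 50.3% of all genes tested were higher. On the log2 scale 6 of the 8 lay within 0.25 of 0, where 47.7% of all genes tested did, and their median was 0.15, beside a median of 0.0026 over all genes tested. Of the 8 genes, 0 had an unadjusted p under 0.05, where 26.9% of all genes tested did. In 0 of the 8 did the 4 knockout values lie apart from the 4 control values, where 13.1% of all genes tested did, 6.06% with the knockouts higher. The narrowest 95% intervals were those of Slc27a1, Slc27a4 and Lpl, and the widest was that of Angptl4. The size of the median depended on the libraries included. Without control replicates 3 and 4 together, which stood apart from the rest, the median of the 8 was 0.025, with 6 estimates higher and 2 lower, and 0 of the 8 passed. The median was 0.044 without control replicate 4 alone and 0.080 without knockout replicate 5. Without any other single library it was 0.15 to 0.22.

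**Figure D1:**
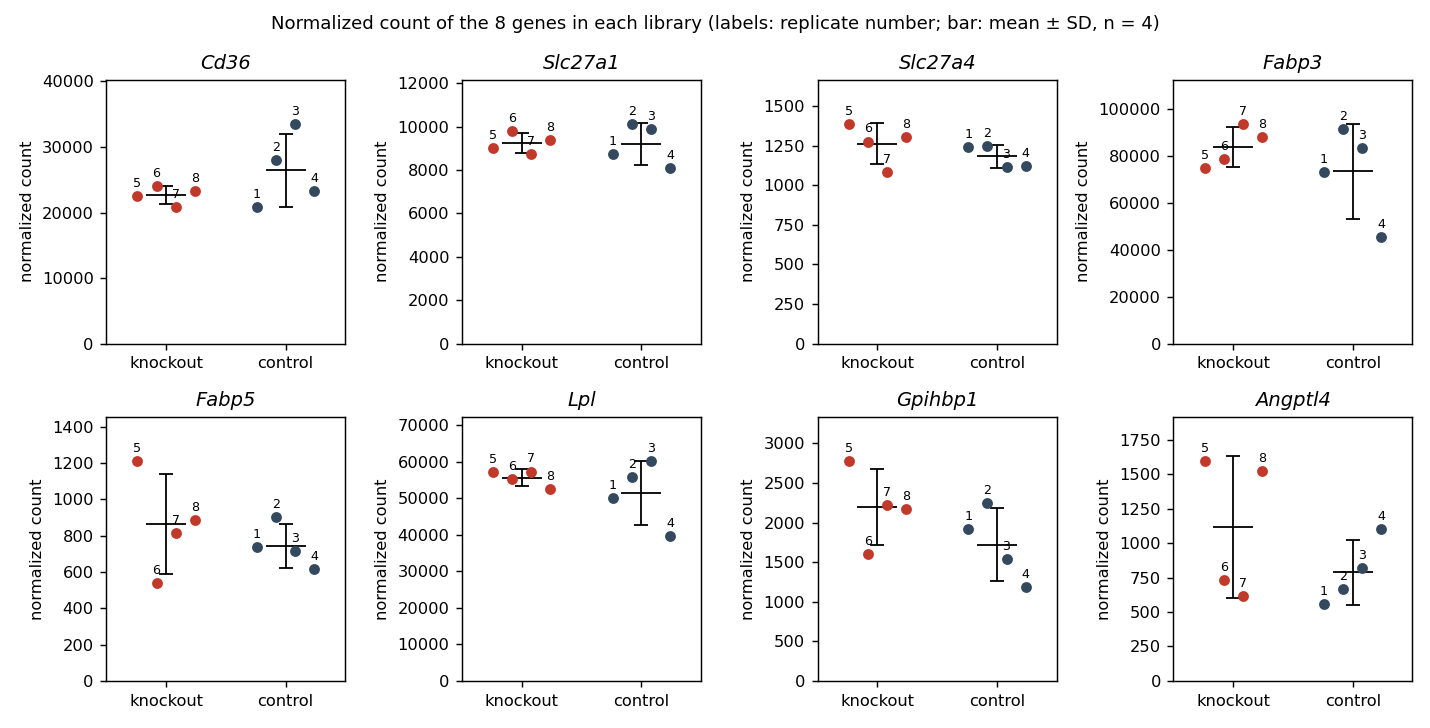
Normalized count of each gene (vertical axis, from 0) in the 4 knockout libraries (left, red) and the 4 control libraries (right, dark). Numbers are replicate numbers, and bars show the mean and SD of 4 libraries. The groups overlap in all 8 genes, and control replicate 4 holds the lowest value of Fabp3 (45279.4), Lpl (39733.4), Gpihbp1 (1182.5) and Slc27a1 (8096.7).

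The libraries held 55283991 to 74996042 recovered reads in knockouts and 70275628 to 109101295 in controls. Values are given as normalized counts, reads divided by a size factor per library, and tested on a log2 scale. Acot2, the targeted gene, had a normalized count of 256.4 to 354.0 in knockout libraries and of 2166.2 to 4165.4 in controls, lower by limma at an adjusted p of 4.72e-06 (log2 difference -3.24 ± 0.20, SE, n = 4 each), so all 8 libraries matched their labels. Control replicates 3 and 4 stood apart from the other 6 on the first principal component, at 55.2 and 56.1. Control replicates 1 and 2 lay at 0.56 and -2.98, and the knockouts at -38.6 to -19.5. The groups thus did not overlap on this component, and leaving out control replicates 3 and 4 removes the controls farthest from the knockouts. Knockout replicate 8 held heart transcripts: 8 heart markers summed to 12630.5 there, against 1236.2 to 1885.6 in the other knockouts and 1021.7 to 1494.3 in controls. The tissue label matched its markers, since 9 fast fibre genes summed to 9.96e+06 to 1.07e+07 in knockouts and 9.02e+06 to 1.09e+07 in controls, far above the 9 slow and oxidative fibre genes (216676 to 361255 in knockouts, 185763 to 410585 in controls). Whether each library is a different mouse is not stated, and the p-values therefore describe how far these libraries scatter. In whole muscle, fewer cells of a type and less RNA per cell cannot be told apart.

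The 8 genes spanned a wide range of levels per length, here normalized counts per kilobase of all annotated exon bases, averaged over the 8 libraries. Fabp3 stood at 95336 per kilobase, rank 27 of 15119 genes with a length. Cd36 followed at 6843 (rank 417), Lpl at 5113 (rank 550), Slc27a1 at 1580 (rank 1584) and Gpihbp1 at 766 (rank 2795). Each of these 5 was above the next in 8 of 8 libraries. The lowest 3, Slc27a4 at 277, Angptl4 at 269 and Fabp5 at 225, did not separate: Slc27a4 was above Angptl4 in 5 of 8 libraries, and Angptl4 above Fabp5 in 5 of 8. The order depends on the length that is used. With the longest coding transcript of each gene, an alternative chosen after seeing the data, Lpl stood at 13020 per kilobase, above Cd36 at 7228 in 8 of 8 libraries, and Fabp5 stood at 813, above Slc27a4 at 302 in 8 of 8.

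**Figure D2:**
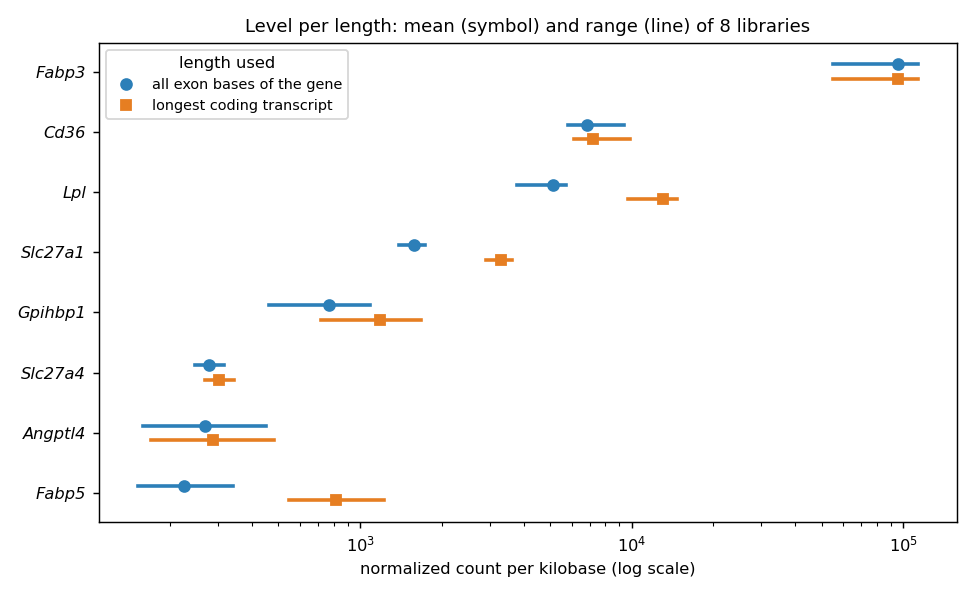
Level per length of each gene on a log axis in normalized counts per kilobase, with the mean (symbol) and the range (line) of the 8 libraries. Circles use all exon bases and squares the longest coding transcript. Fabp3 is highest under both lengths, and the places of Lpl and Fabp5 depend on the length.

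Among the transporters, Cd36 encodes a scavenger receptor that takes up long-chain fatty acids in both muscle fibres and capillary endothelium. It lies at chromosome 5, 17781690 to 17888801, minus strand (GRCm38). Its normalized count was 22579.7, 23984.9, 20893.0 and 23306.4 in knockout replicates 5 to 8, and 20823.6, 28048.7, 33550.7 and 23345.2 in control replicates 1 to 4. The 4 knockouts lay close together, with a coefficient of variation of 5.86% against 21.2% in controls, and control replicates 2 and 3 were above every knockout. Cd36 averaged 22691 ± 1329 in knockouts and 26442 ± 5606 in controls (SD, n = 4 each). The log2 difference was -0.20 ± 0.14 (SE; adjusted p = 0.372 by limma, p = 0.314 by exact permutation, two-sided), with a 95% interval of -0.50 to 0.10. This interval leaves room for a level as low as 0.707 times that of controls and as high as 1.07 times. Without control replicate 3 the difference was -0.076, without control replicates 3 and 4 it was -0.093, and without control replicate 1 it was -0.31. With the trend of each library against exon length and GC content removed it was -0.098. After each library's mean deviation of 10 endothelial markers was subtracted, the group means of Cd36 differed by -0.34. Of these markers, 5 had higher and 5 lower estimates in knockouts. Whether endothelial content bears on the Cd36 estimate was not tested.

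Slc27a1 encodes FATP1, a fatty acid transport protein of muscle and fat, at chromosome 8, 71568882 to 71587302, plus strand. It was the steadiest of the 8 genes, and its residual SD of 0.12 on the log2 scale was at the 9.8th percentile of all genes tested. The counts were 9011.4, 9803.3, 8735.3 and 9380.5 in knockout replicates 5 to 8, against 8717.1, 10135.7, 9895.5 and 8096.7 in control replicates 1 to 4. Every knockout value lay inside the control range. Slc27a1 averaged 9233 ± 463 in knockouts and 9211 ± 968 in controls (SD, n = 4 each), and differed on the log2 scale by 0.0081 ± 0.11 (SE; adjusted p = 0.972 by limma, p = 0.971 by exact permutation, two-sided). Its 95% interval, -0.22 to 0.24, runs from 0.857 to 1.18 times the control level.

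Slc27a4 encodes FATP4, the related transporter best known from intestine and skin, at chromosome 2, 29802634 to 29817522, plus strand. Its counts were 1389.4, 1276.8, 1085.0 and 1302.6 in knockout replicates 5 to 8, and 1239.9, 1246.9, 1118.1 and 1124.9 in control replicates 1 to 4. Knockout replicates 5, 6 and 8 were above the highest control, and knockout replicate 7 was below the lowest. The means were 1263 ± 128 in knockouts and 1182 ± 70.5 in controls (SD, n = 4 each). The log2 difference was 0.092 ± 0.12 (SE; adjusted p = 0.632 by limma, p = 0.343 by exact permutation, two-sided), with a 95% interval of -0.16 to 0.34. Slc27a4 was the gene whose groups no longer overlapped without knockout replicate 7, where the difference was 0.16. Without that library the groups did not overlap in 2516 of 15625 genes tested, against 2055 of 15657 with all 8 libraries. In reads, Slc27a1 outnumbered Slc27a4 in every library, with 649 to 805 Slc27a1 reads per 100 Slc27a4 reads in knockouts and 703 to 885 in controls. This is a ratio of counts that is not divided by length.

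Fabp3, the heart and muscle fatty acid binding protein, had the highest normalized counts of the 8 genes. Its place is chromosome 4, 130308595 to 130315463, plus strand. Its counts were 74651.3, 78596.7, 93552.2 and 87882.2 in knockout replicates 5 to 8, and 73196.2, 91316.3, 83216.5 and 45279.4 in control replicates 1 to 4. Only control replicate 4 was far from the others. Fabp3 averaged 83671 ± 8612 in knockouts and 73252 ± 20067 in controls (SD, n = 4 each), and the log2 difference was 0.23 ± 0.18 (SE; adjusted p = 0.428 by limma, p = 0.457 by exact permutation, two-sided; 95% interval -0.16 to 0.63). Without control replicate 4 the difference was 0.019, and without control replicates 3 and 4 it was 0.028. With the trend of each library against exon length and GC content removed it was -0.070. Fabp3 is known to be higher in oxidative fibres. The 9 slow and oxidative fibre markers summed to 216676 to 361255 in knockouts and 185763 to 410585 in controls. Most of that sum came from Mb and Myh2, at 110003 and 58594.4 in control replicate 4. This library was lowest in both the sum and Fabp3. However, the sum was highest in control replicate 3 and knockout replicate 6, and Fabp3 in control replicate 2 and knockout replicate 7 of their groups. Relative to the mean deviation of the 9 markers, the group means of Fabp3 differed by 0.079. The libraries then ran from -1.06 to 0.76, a wider spread than that of Fabp3 itself around its mean (-0.76 to 0.28). Whether fibre content bears on the Fabp3 estimate was not tested. Without knockout replicate 8, the library with heart transcripts, the difference of Fabp3 was 0.21.

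The Fabp3 count shares sequence with a processed pseudogene, Fabp3-ps1, on the minus strand of chromosome 10. Their transcripts differ at 3 of 402 aligned bases (99.3% identity), and 226 of the 353 windows of 50 bases along the pseudogene hold no difference. Along Fabp3 itself, 226 of 774 such windows also occur in Fabp3-ps1, and 289 (37.3%) occur in any other annotated gene. The stretch of Fabp3 within 1 exon that holds the most differences over 100 bases is chr4:130313954-130314053 on the plus strand. It is shown above its copy at chr10:86732043-86732142 on the minus strand (GRCm38, from GENCODE M21 transcripts), to show how they differ within the aligned part. Capitals mark the 2 positions that differ.
Fabp3: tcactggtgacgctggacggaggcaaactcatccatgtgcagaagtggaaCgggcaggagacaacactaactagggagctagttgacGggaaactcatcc
Fabp3-ps1: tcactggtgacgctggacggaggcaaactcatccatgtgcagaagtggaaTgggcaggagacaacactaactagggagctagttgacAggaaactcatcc
Fabp3-ps1 had 648.6, 715.8, 785.9 and 780.1 normalized counts in knockout replicates 5 to 8, and 642.6, 720.4, 779.9 and 365.2 in control replicates 1 to 4. These were 0.84 to 0.911 reads per 100 Fabp3 reads in knockouts and 0.789 to 0.937 in controls, so the row of the pseudogene followed that of Fabp3 in each library. How reads that match both were counted is not given in the sources used here. In addition, 19.6% of the Fabp3 exon bases lie in exons of Zcchc17 and Gm10570 on the other strand, and no source states a strand setting, so the Fabp3 count is uncertain to that extent.

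Fabp5, the epidermal fatty acid binding protein, is also made by endothelial cells, macrophages and adipocytes. Its place is chromosome 3, 10012548 to 10016607, plus strand, and 5.48% of its 50-base windows also occur in other annotated genes, chiefly the pseudogene Gm6166. The counts were 1210.0, 540.4, 811.9 and 885.1 in knockout replicates 5 to 8, and 735.5, 904.3, 715.3 and 613.7 in control replicates 1 to 4. Knockout replicate 5 was above and knockout replicate 6 below all controls. The means were 862 ± 275 in knockouts and 742 ± 120 in controls (SD, n = 4 each), and the log2 difference was 0.17 ± 0.21 (SE; adjusted p = 0.615 by limma, p = 0.600 by exact permutation, two-sided; 95% interval -0.27 to 0.62). Without knockout replicate 5 the difference was -0.011, without knockout replicate 6 it was 0.38, and without control replicates 3 and 4 it was 0.022. The 9 macrophage markers summed to 12566 to 19940 in knockouts and 8429 to 12415 in controls, without overlap. In the main fit, 9 of 9 estimates were higher in knockouts and 0 passed. Of the 9, 7 had an unadjusted p under 0.05 by limma, where 26.9% of all genes tested did. With sample quality weights 5 of the 9 passed, where 1201 of 15657 genes tested passed. It was 4 of the 9 without control replicate 1 (1720 of 15641 genes) and without control replicate 2 (2048 of 15664). In knockouts the macrophage sum was lowest in replicate 6, as was Fabp5, but the sum was highest in replicate 8 and Fabp5 in replicate 5. In controls the sum was lowest in replicate 3 and Fabp5 in replicate 4. Relative to the mean deviation of the macrophage markers, the group means of Fabp5 differed by -0.38, the opposite sign. Whether macrophage content bears on the Fabp5 estimate was not tested. Per 100 Fabp5 reads there were 6169 to 14544 Fabp3 reads in knockouts and 7378 to 11635 in controls.

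Lpl encodes lipoprotein lipase, at chromosome 8, 68880491 to 68907448, plus strand. Its counts were 57348.8, 55399.1, 57380.6 and 52599.9 in knockout replicates 5 to 8, and 50098.2, 55803.7, 60250.1 and 39733.4 in control replicates 1 to 4. The knockouts all lay inside the control range, with a coefficient of variation of 4.05% against 17.2% in controls. Lpl averaged 55682 ± 2254 in knockouts and 51471 ± 8860 in controls (SD, n = 4 each). The log2 difference was 0.13 ± 0.13 (SE; adjusted p = 0.538 by limma, p = 0.514 by exact permutation, two-sided), with a 95% interval of -0.15 to 0.41, or 0.901 to 1.33 times the control level. It was 0.011 without control replicate 4 and 0.074 without control replicates 3 and 4. It was 0.36 with the length and GC trend removed. That setting used all annotated exon bases of Lpl (10478), and its longest coding transcript is 4115 bases. Whether the length used bears on this value was not tested. Adipocytes also express Lpl. The 7 adipocyte markers summed to 50568 to 108461 in knockouts and 63072 to 90199 in controls, but Car3, which muscle fibres also express, made up 81.8% to 86.9% of that sum in knockouts and 82.4% to 92.7% in controls. The other 6 markers summed to 8244 to 19734 in knockouts and 6549 to 15682 in controls, lowest in control replicate 3. Relative to the mean deviation of the 7 markers, the group means of Lpl differed by -0.060. The libraries then ran from -0.85 to 0.73, a far wider spread than that of Lpl itself around its mean (-0.42 to 0.18). Whether adipocyte content bears on the Lpl estimate was not tested. The secreted adipocyte hormone Adipoq ran from 1233.0 to 3843.3 in knockouts and from 1191.4 to 3362.9 in controls.

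Gpihbp1, the endothelial protein that binds the lipase, had the smallest p of the 8 genes. Its place is chromosome 15, 75596628 to 75599481, plus strand. Its counts were 2775.8, 1600.6, 2222.2 and 2166.9 in knockout replicates 5 to 8, and 1920.6, 2244.6, 1533.2 and 1182.5 in control replicates 1 to 4. Control replicates 3 and 4 were below every knockout, and control replicates 1 and 2 lay among them. Gpihbp1 averaged 2191 ± 480 in knockouts and 1720 ± 462 in controls (SD, n = 4 each), and differed on the log2 scale by 0.36 ± 0.20 (SE; adjusted p = 0.249 by limma, 0.0868 before adjustment, p = 0.200 by exact permutation, two-sided; 95% interval -0.060 to 0.79). Without control replicates 3 and 4 the difference was 0.051, and with the length and GC trend removed it was 0.19. The 10 markers of capillary endothelium summed to 41399 to 47249 in knockouts and 40634 to 48988 in controls, with 5 estimates higher and 5 lower, and the sums overlapped between groups. After each library's mean deviation of these markers was subtracted from Gpihbp1, the difference of the group means was 0.22. Whether endothelial content bears on the Gpihbp1 estimate was not tested. Among the markers, the tight junction gene Cldn5 (log2 difference 0.81) and Emcn (0.35) did not overlap between groups, while Pecam1 (-0.13) and Cdh5 (-0.22) had lower estimates. In the main fit 0 of the 10 passed over all genes. Without control replicate 2, 3 of the 10 passed as higher, where 2048 of 15664 genes tested passed. It was 1 of the 10 without control replicate 1 (1720 of 15641 genes) and with sample quality weights (1201 of 15657).

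Angptl4 encodes the secreted inhibitor of lipoprotein lipase and had the largest estimate and the widest spread of the 8 genes. It lies at chromosome 17, 33773750 to 33781830, minus strand. Its counts were 1596.8, 732.6, 617.0 and 1523.6 in knockout replicates 5 to 8, and 559.3, 670.2, 819.7 and 1102.4 in control replicates 1 to 4. Knockout replicates 5 and 8 were above every control, and knockout replicates 6 and 7 lay inside the control range. Angptl4 averaged 1118 ± 514 in knockouts and 788 ± 235 in controls (SD, n = 4 each). The log2 difference was 0.42 ± 0.32 (SE; adjusted p = 0.418 by limma, p = 0.314 by exact permutation, two-sided), and its 95% interval of -0.29 to 1.14 allows 0.819 to 2.2 times the control level. Its residual SD of 0.58 on the log2 scale was at the 84th percentile of all genes tested. The size of the difference depended on the libraries included. It was 0.21 without knockout replicate 5, 0.23 without knockout replicate 8 and 0.74 without control replicates 3 and 4. Without any other single library it was 0.28 to 0.67. Knockout replicate 5 had the highest sum of adipocyte markers, both with Car3 (108461) and without it (19734), and knockout replicate 8 held the heart transcripts. Among controls the sum without Car3 was highest in replicate 2 (15682), where Angptl4 was 670.2. It was 10861 in control replicate 4, where Angptl4 was 1102.4. Whether adipocyte or heart content bears on the Angptl4 estimate was not tested. Relative to the mean deviation of the adipocyte markers, the group means of Angptl4 differed by 0.23, with libraries from -1.01 to 0.81. Set against the lipase, there were 1.08 to 2.9 Angptl4 reads per 100 Lpl reads in knockouts and 1.12 to 2.77 in controls, and 2.89 to 4.84 Gpihbp1 reads per 100 Lpl reads in knockouts and 2.54 to 4.02 in controls.

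**Figure D3:**
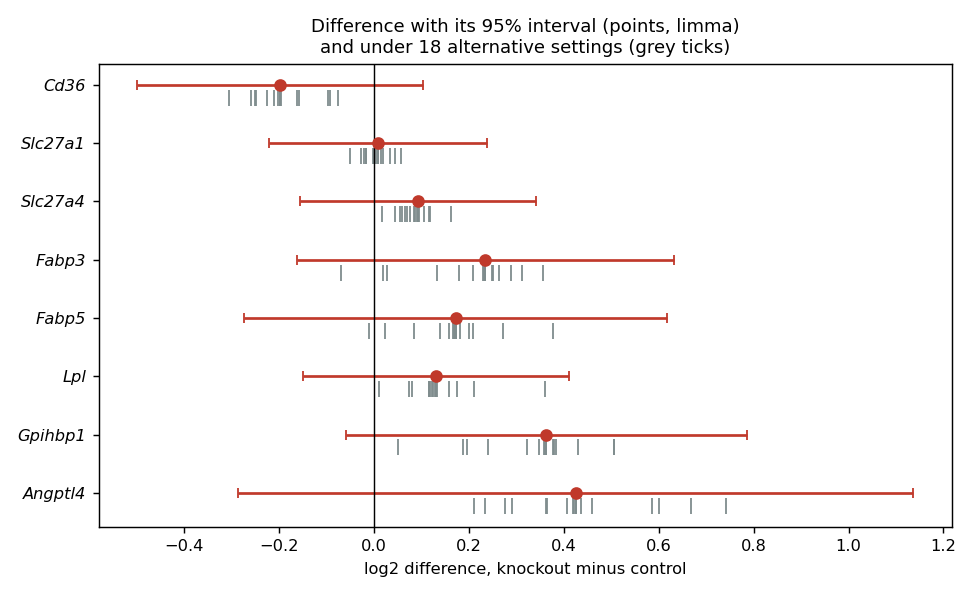
Log2 difference of each gene, knockout minus control (horizontal axis), with its limma estimate and 95% interval (red) and the values under 18 alternative settings (grey ticks). All 8 intervals include 0, from the narrow one of Slc27a1 (-0.22 to 0.24) to the wide one of Angptl4 (-0.29 to 1.14).

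Several genes shared their extreme libraries. Knockout replicate 5 held the highest count of Slc27a4, Fabp5, Gpihbp1 and Angptl4, and control replicate 4 the lowest of Slc27a1, Fabp3, Lpl and Gpihbp1. Control replicate 3 held the highest count of Cd36 and of Lpl. The residual SDs of the 8 genes, from 0.12 to 0.58 on the log2 scale, lay on both sides of the median of all genes tested, 0.26.

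For each of the 8, the genes with the most similar profile over the 8 libraries were found by the root mean square difference of log2 values, each gene centred on its own mean, among 12736 others. For Cd36 the nearest was Sco1, a factor for cytochrome oxidase assembly (0.067), followed by Acadvl, the very long-chain acyl-CoA dehydrogenase (0.083). For Lpl the nearest was Slc25a20, the carnitine-acylcarnitine carrier of mitochondria (0.064), with Ech1, an enzyme of fatty acid oxidation, in the third place (0.090). The nearest profile to Fabp3 was that of its pseudogene Fabp3-ps1 (0.079), then Cpt1c (0.096) and Fndc5 (0.13). For Gpihbp1 the nearest were Tap1, which carries peptides for antigen presentation (0.087), and the interferon-induced gene Ifitm3 (0.099), and for Fabp5 they were Cmpk2 (0.12), Kctd17 (0.12) and B2m, the light chain of MHC class I (0.13). Slc27a1 was closest to Pex2 (0.041) and Slc27a4 to Znrd1as (0.048). Angptl4 was farther from its like genes, with Cyp4v3 at 0.26 and Mdm1 at 0.29. These are descriptions of 8 libraries, and the median of the same measure over all 12736 genes was 0.27 for Slc27a1 and 0.60 for Angptl4.

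Of 19 other genes of lipolysis in the vessel, 14 were tested and 0 passed in either direction in the main fit. Their estimates were higher in 8 and lower in 6, and the median was 0.017. Vldlr, a lipoprotein receptor which helps deliver triglyceride-rich particles to the lipase, had 17862.2, 20718.5, 17292.0 and 12589.1 counts in knockout replicates 5 to 8, against 19625.3, 19835.9, 26476.9 and 30742.6 in control replicates 1 to 4. Control replicates 3 and 4 were the highest and 1 and 2 lay within the knockout range, and the log2 difference was -0.49 ± 0.17 (SE; adjusted p = 0.104 by limma). It was -0.23 without control replicates 3 and 4. The higher estimates of smallest p were Lrp1, a remnant receptor, at 0.13 ± 0.13 (SE), and Lmf2 at 0.063 ± 0.12 (SE). Lrp1 was at 0.23 without control replicates 3 and 4 and at 0.36 with the length and GC trend removed, and Lmf2 turned to -0.044 and -0.027 under these settings. Lmf1, the chaperone that matures lipoprotein lipase, had 849.9 to 1005.8 counts in knockouts and 809.2 to 1041.5 in controls.

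Among 26 other genes of fatty acid transport, 20 were tested and 0 passed in the main fit. Estimates were higher in 10 and lower in 10, and the median was -0.035. The adipocyte and endothelial binding protein Fabp4 had 31602.6, 25313.9, 21174.4 and 35871.7 counts in knockout replicates 5 to 8, and 17900.6, 24555.2, 13998.6 and 12305.2 in control replicates 1 to 4. The groups overlapped only through knockout replicate 7 and control replicate 2. Fabp4 averaged 28491 ± 6526 in knockouts and 17190 ± 5441 in controls (SD, n = 4 each), and differed on the log2 scale by 0.75 ± 0.21 (SE; adjusted p = 0.0796 by limma, p = 0.0571 by exact permutation, two-sided). Relative to the mean deviation of the endothelial markers the difference was 0.61, relative to that of the adipocyte markers it was 0.56, and without control replicates 3 and 4 it was 0.41. Tcf15, an endothelial transcription factor that forms a pair with Meox2 to drive fatty acid uptake genes, had 1373.7 to 2690.7 counts in knockouts and 790.9 to 1492.1 in controls, which differed on the log2 scale by 0.81 ± 0.21 (SE; adjusted p = 0.0796 by limma), and by 0.49 without control replicates 3 and 4. Its partner Meox2 had 819.0 to 991.2 counts in knockouts and 831.6 to 1120.6 in controls, with a difference of -0.11.

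Zdhhc5, one of the palmitoyltransferases that modify CD36 at the cell surface, had groups that did not overlap. Its counts were 5705.1, 4774.7, 4176.4 and 3723.4 in knockout replicates 5 to 8, and 6503.4, 5912.9, 9428.1 and 8779.0 in control replicates 1 to 4. All 4 knockouts lay below all 4 controls, with control replicates 3 and 4 far above the rest. The means were 4595 ± 856 in knockouts and 7656 ± 1710 in controls (SD, n = 4 each), and the log2 difference was -0.73 ± 0.17 (SE; adjusted p = 0.0796 by limma, p = 0.0286 by exact permutation, two-sided, the smallest that 4 against 4 allow). Without control replicates 3 and 4 it was -0.45 (adjusted p = 0.598, limma). Nrp1, a receptor that takes part in endothelial fatty acid uptake through VEGF-B, differed by -0.40 ± 0.17 (SE; adjusted p = 0.151 by limma), and by -0.067 without these libraries. The transporter genes Slc27a2 and Slc27a6 and the binding protein genes Fabp2, Fabp6, Fabp9 and Fabp12 had too few counts to test, with at most 29.1 in any library.

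**Figure D4:**
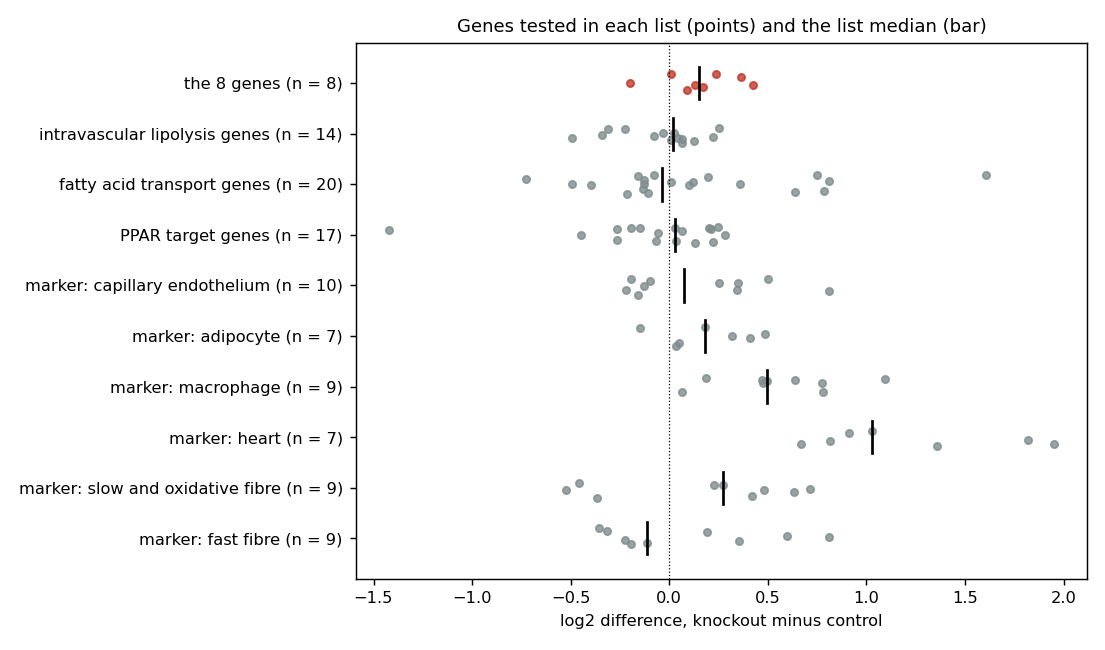
Log2 difference, knockout minus control, of each gene tested (points) in the 8 genes, the 3 lists of related genes and the cell type markers, with each list's median (bar). The 8 genes lie between -0.20 and 0.42, and the medians of the 3 related lists lie between -0.035 and 0.029.

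Angptl4 is one of many genes that PPAR receptors drive. Of 18 other PPAR targets, 17 were tested and 0 passed in the main fit. Estimates were higher in 9 and lower in 8, and the median was 0.029. Pdk4, a pyruvate dehydrogenase kinase and a sensitive PPAR target, had 54330.5, 56996.1, 46584.7 and 78957.1 counts in knockout replicates 5 to 8, against 44026.0, 50959.8, 80890.5 and 73587.9 in control replicates 1 to 4. It was high in knockout replicate 8 and control replicates 3 and 4, and its log2 difference was -0.057 ± 0.20 (SE; adjusted p = 0.873 by limma). Plin2, which coats lipid droplets, differed by 0.20, and Ucp3, the uncoupling protein of muscle, by -0.26. By p, the leading higher estimates were Cpt2 at 0.22 ± 0.12 (SE) and Mlycd at 0.25 ± 0.13 (SE). Mlycd was at 0.059 without control replicates 3 and 4, and with the length and GC trend removed Mlycd was at 0.061, Cpt2 at 0.066 and Hadha at -0.075. The leading lower ones were Hadha at -0.27 ± 0.13 (SE) and Cpt1b at -1.42 ± 0.40 (SE; adjusted p = 0.0796 by limma). Cpt1b had only 11.5 to 40.7 counts in knockouts and 50.7 to 84.2 in controls, groups that did not overlap. Of its exon bases, 81.4% also lie in exons of Gm44502 on the same strand, so its count is uncertain.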

How the data were processed

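RNA of white quadriceps from 4 knockout and 4 control samples was compared. The submitters' processing notes name GRCm38 and, without versions, cutadapt, FastQC, STAR, HTSeq and DESeq2. No source gives the annotation or strand setting. The authors deposited log2 values. Undoing the log2 and subtracting 1 gave whole multiples of 1 step per library (100% within 0.1, up to 1000 reads), the form of reads divided by a size factor. This normalized count is not divided by length, and 3 reads correspond to 2.04 to 3.87 of it.

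limma 3.58.1 (R 4.3.3) was run on log2(normalized count + 1), which understates the change of low genes, where the mean normalized count reached 10. eBayes used trend and robust, and p-values were adjusted over all genes at 0.05. The fit was tried on simulated reads with 200 changed genes. Groups and replicate numbers come from the labels. Lengths, positions and transcripts came from GENCODE M21. The 27 date-like gene names were restored through Entrez identifiers. The members and lists were chosen with earlier results of these data known. The genes named from other lists are the 2 of smallest p in each direction. Of the genes that the rules name, 2 are not reported here. Lmf1, Meox2, Pdk4, Plin2, Ucp3 and the named markers were picked after their values were seen. Alternatives were a pseudocount of 8, filters, variance models, voom on recovered reads, scalings, trend removal (loess, span 0.5) and libraries left out.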

Additional observations from a re-analysis of the deposited data

Results flagged for a closer look

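The summed heart markers of knockout replicate 8 (12630.5) stood far from the other 3 knockouts (1236.2 to 1885.6). Of 52 groups of 4 values examined for such a gap, 1 passed, and chance passes about 1 in 20. None of the 8 genes had a library that far from its group.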

How the results depend on the processing

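None of the 8 genes passed under any of the 18 alternatives. The smallest adjusted p among them was 0.0851, for Gpihbp1 without control replicate 2. Directions held throughout for Cd36 (-0.31 to -0.076), Slc27a4 (0.017 to 0.16), Lpl (0.011 to 0.36), Gpihbp1 (0.051 to 0.50) and Angptl4 (0.21 to 0.74). The sign turned for Slc27a1 with sample quality weights (-0.017), quantile normalization (-0.0027) and without control replicates 3 and 4 (-0.027), and it ran from -0.052 to 0.056 with each replicate left out. Fabp3 turned with the length and GC trend removed (-0.070). Fabp5 ran from -0.011 to 0.38 with each replicate left out. The count of genes without overlap among the 8 was 0 to 1 with each replicate left out. It was 1 without knockout replicate 7, where 2516 of 15625 genes tested did not overlap. Over all genes, 2 passed with no filter, 7 with eBayes without trend and robust, 1201 with sample quality weights, 4 with the trend removed, and 1 to 2048 with each replicate left out. This count was 1720 without control replicate 1 and 2048 without control replicate 2, against 1 or 2 without any other single library. The cause was not tested. Of the named genes of other lists, Zdhhc5 and Cpt1b passed under 3 alternatives each, Tcf15 under 2, and Fabp4 and Vldlr under 1 each. With the length and GC trend removed, Tcf15 was at 0.37, Vldlr at -0.27 and Nrp1 at -0.17. No paired analysis was possible because the groups share no replicate numbers. No depth limit applied, since the 8 genes had at least 419 reads in every library.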
